A study of Mus musculus with 8 samples.

Results

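The thin filament of the cardiac sarcomere was followed through 10 genes, all of which were found among the 17191 genes of the table: the sarcomeric actins Acta1 and Actc1, the troponin subunits Tnnt2, Tnni1, Tnni3 and Tnnc1, the tropomyosins Tpm1 and Tpm2, and the pointed-end proteins Tmod1 and Lmod2. They were chosen by symbol as the actin, troponin, tropomyosin and capping genes of heart muscle. Among them are isoforms whose balance shifts between the fetal and the adult heart. The libraries came from whole hearts of mice, 4 of them mutant for STAT3 (S727A, which puts alanine at a serine that can be phosphorylated) and 4 wild type (WT). Both groups had undergone transverse aortic constriction (TAC), a surgical pressure load on the heart, for 4 weeks, and no unoperated heart was analysed here, so the values compare genotypes under load and not load with rest. The labels give no strain, sex or age and do not say in which cells the mutation is carried.

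As background, the thin filament is a polymer of actin along which tropomyosin lies end to end, with a troponin complex on each tropomyosin. Calcium binding to troponin C shifts tropomyosin and opens the myosin sites on actin. In rodents the fetal heart expresses skeletal actin and the slow skeletal form of troponin I, which give way to cardiac actin and cardiac troponin I after birth, and skeletal actin returns in pressure overload as part of the fetal gene program. Troponin I, by contrast, is known for a switch that is not readily undone in the adult.

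All 4 libraries of each group held heart muscle RNA, with the myocyte markers Actn2, Ryr2, Pln, Myl2, Myl3 and Ttn summing to 28392 to 35384 CPM (counts scaled to a common library size) in every library. Total estimated counts ran from 10577636 to 13305143 per library. S727A 4 and WT 4 were almost free of reads from the Y-linked genes Uty, Kdm5d, Ddx3y and Eif2s3y (0.699 and 0.467 CPM in sum, against 158 to 186 CPM in the others). WT 1 and WT 4 held airway transcripts, with Scgb1a1, Scgb3a2, Sftpc, Sftpb and Sftpa1 at 87.8 and 32.9 CPM in sum and no more than 1.90 CPM elsewhere. Stat3, the mutated gene, averaged 164 ± 6.74 CPM (S727A) against 201 ± 23.2 CPM (WT; SD, n = 4), every S727A library lying below every WT library (edgeR adjusted p = 0.155, not passing); since the mutation changes a codon, its level does not check the labels. The labels do not say that libraries of a group came from separate animals. Each p-value therefore sets a genotype difference against the scatter of these libraries, which may not be the scatter between animals.

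The actin pair is shown first through its promoters, because skeletal actin was the most variable of the 10 genes and cardiac actin among the steadier ones. Both stretches are the 250 bases before the RefSeq transcription start (GRCm38.p6), written 5′ to 3′ on the gene's strand. GENCODE M21 places the gene starts elsewhere. Its Actc1 gene begins at 114053548, so the Actc1 window lies inside it, and its Acta1 gene begins at 123894751, downstream of the RefSeq start. Distances and absences of motifs hold for the RefSeq starts only. Capitals mark the CArG box, the binding sequence of serum response factor, and CATTCC, the core of the M-CAT element bound by TEAD factors.
Acta1 (chr8:123894776-123895025, minus strand): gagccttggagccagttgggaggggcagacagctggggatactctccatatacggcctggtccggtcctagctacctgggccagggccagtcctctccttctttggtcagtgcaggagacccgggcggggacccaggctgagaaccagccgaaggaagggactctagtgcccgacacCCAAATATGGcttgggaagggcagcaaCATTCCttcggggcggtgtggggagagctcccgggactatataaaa
Actc1 (chr2:114052876-114053125, minus strand): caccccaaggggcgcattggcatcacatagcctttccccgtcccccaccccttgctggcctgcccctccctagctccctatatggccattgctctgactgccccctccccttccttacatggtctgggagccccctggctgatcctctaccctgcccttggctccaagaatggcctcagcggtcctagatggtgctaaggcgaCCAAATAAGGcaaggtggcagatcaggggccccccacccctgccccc
Each promoter held 1 exact CArG box, with only A or T between CC and GG, from 73 to 64 bases before the start in Acta1 and from 47 to 38 in Actc1. Looser variants of the box were not searched. A CArG box was present in 1.47% of all 32851 promoters searched over the same 250 bases, on both strands, and in none of the windows of the 8 other genes. CATTCC was found once in Acta1, Tnnt2, Tnnc1, Tpm1 and Tmod1, on either strand, and in 12.6% of all promoters. The sequence TATAAA occurred in Acta1 alone among the 10 genes and in 12.4% of all promoters. Matches describe letters in these windows and are no evidence of binding.

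Per unit of length, Actc1, Tpm1, Tnnt2, Tnni3 and Tnnc1 were far above Tnni1 and Tpm2 in all 8 libraries. In FPKM, the deposited values scaled for gene length and depth, the medians over the 8 libraries were 10801 for Actc1, 8250.1 for Tpm1, 5590 for Tnnt2, 4601 for Tnni3 and 3749 for Tnnc1. Acta1 had a median of 2866 FPKM. The filament-end genes were lower, at 505 FPKM for Lmod2 and 191 FPKM for Tmod1. Tpm2 was at 23.1 FPKM and Tnni1 at 0.32 FPKM. Together the 10 genes took 3.85% to 4.69% of all estimated counts in a library, with 4.40% ± 0.384 in S727A and 4.16% ± 0.178 in WT (SD, n = 4). In a whole heart, fewer myocytes and less of a transcript per myocyte cannot be told apart.

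**Figure D1:**
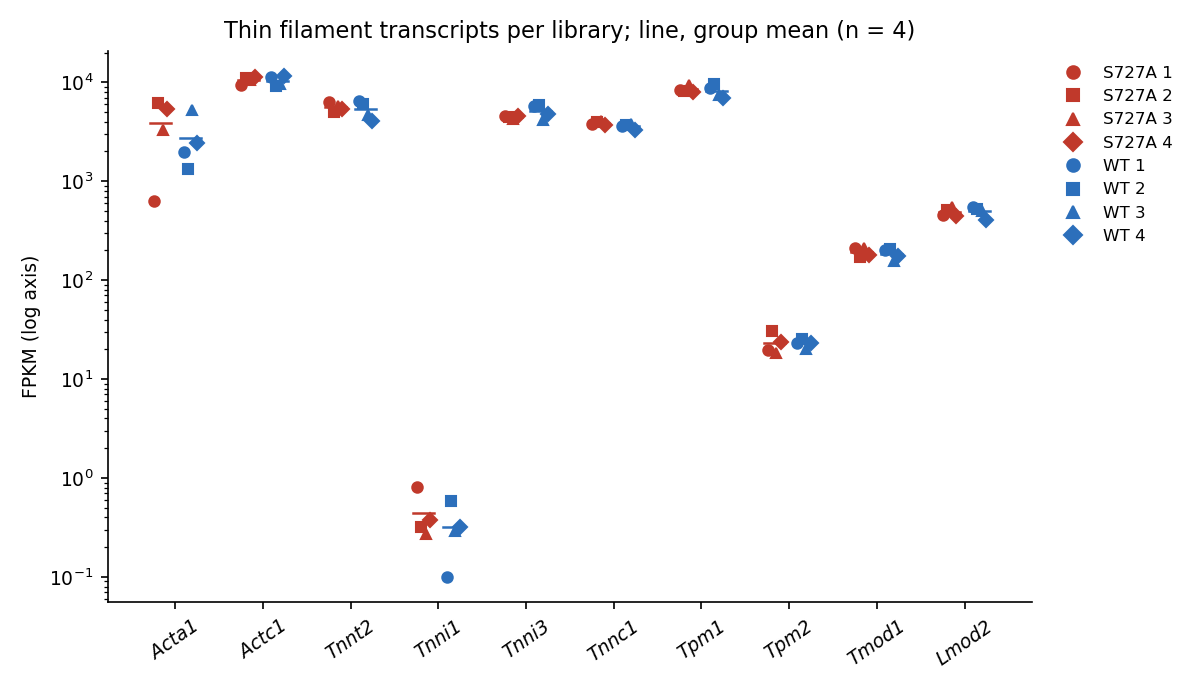
FPKM (log axis) of the 10 thin filament genes in each of the 8 libraries, with marker shape for the replicate number, colour for genotype and a line at the group mean (n = 4). Acta1 spreads from 626 to 6221 FPKM and Tnni1 lies below 1 FPKM throughout, whereas the other genes stay within a narrow band in both genotypes.

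No gene of the 10 was shown to differ between S727A and WT hearts. Of the 10 genes 9 had enough reads to be tested, and 0 passed in edgeR, where 0.146% of the 12998 tested genes did (19 genes, 0.0462% of the tested genes higher and 0.1% lower in S727A). None of the 9 had an unadjusted p under 0.05, against 17.8% of all tested genes, and none passed in DESeq2 or limma voom. In none of the 9 did the libraries of S727A lie entirely on one side of those of WT, which was the case for 8.43% of tested genes (4.07% higher and 4.36% lower). The median log2 fold change of the 9 was 0.08 and that of all tested genes -0.0034, with 7 of 9 and 49.4% of genes above 0. Apart from Acta1, the 95% intervals of the fold change in edgeR lay between 0.742 and 1.34 for the other 8 tested genes, so larger changes fell outside those intervals.

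**Figure D2:**
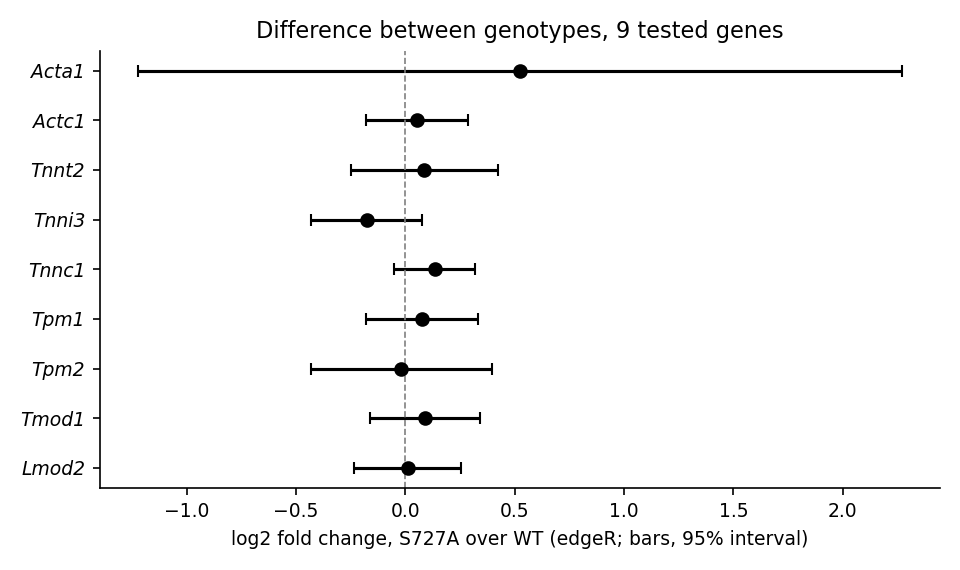
Log2 fold change of S727A over WT for the 9 tested thin filament genes (edgeR on estimated counts), with bars for the 95% interval. Every interval crosses 0, and that of Acta1 runs from -1.22 to 2.27 while the others lie between -0.43 and 0.42.

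Acta1 encodes skeletal muscle alpha-actin, the fetal and stress-responsive actin of the heart (gene 11459, chromosome 8, 123891769 to 123894751, minus strand, GRCm38). In S727A libraries 1 to 4 it was at 626, 6221, 3279 and 5434 FPKM, and in WT libraries 1 to 4 at 1955, 1331, 5297 and 2453 FPKM. S727A 1 was the lowest of all 8 libraries and S727A 2 the highest, and WT 3 stood with the high S727A libraries, so the S727A range enclosed the whole WT range. In CPM, Acta1 averaged 5564 ± 3596 (S727A) against 3873 ± 2420 (WT; SD, n = 4). The log2 fold change was 0.52 ± 0.73 (SE, edgeR adjusted p = 0.754), and its 95% interval in fold ran from 0.428 to 4.82. The estimate was 0.19 without S727A 2, 0.88 without S727A 1 and 1.04 without WT 3. The spread of Acta1 within groups, an SD of 1.22 on the log2 CPM scale, exceeded that of 99.6% of tested genes, whose median was 0.187.

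Actc1 encodes cardiac alpha-actin, the main actin of the adult heart (gene 11464, chromosome 2, 114047282 to 114053548, minus strand, GRCm38). It was at 9485, 11048, 10553 and 11386 FPKM in S727A libraries 1 to 4 and at 11258, 9121, 9649 and 11635 FPKM in WT libraries 1 to 4. The WT range enclosed that of S727A, and the highest library was only 1.28-fold above the lowest, compared with 9.93-fold for Acta1. For Actc1 the log2 fold change was 0.05 ± 0.11 (SE, edgeR adjusted p = 0.838), with a 95% interval in fold of 0.882 to 1.22. The coding sequences of the pair were 86.3% identical, differing at 155 of 1131 bases, and no stretch of 50 bases was shared between their transcripts. The deposited estimates of both were fractional in the same 3 of 8 libraries and their sum was whole there, so reads had been divided between them in those libraries.

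The balance within the actin pair followed Acta1. Acta1 made up 6.19%, 36.0%, 23.7% and 32.3% of the summed FPKM of the pair in S727A libraries 1 to 4. In WT libraries 1 to 4 its share was 14.8%, 12.7%, 35.4% and 17.4%. The sum of both actins ranged from 10112 to 17268 FPKM, with the lowest values in S727A 1 and WT 2, the 2 libraries of smallest Acta1 level. On the log2 scale the count ratio of Acta1 over Actc1 was -1.85 ± 1.41 in S727A and -2.08 ± 0.85 in WT (SD, n = 4), a difference of 0.23 (exact two-sided permutation p = 0.771, adjusted over the 4 ratios tested 0.771). The smallest p that this design allows is 0.0286. After adjustment over 4 ratios, a lone ratio at that p would not pass, so the test could not call the actin ratio by itself. Without S727A 1 the difference was 0.91 and without S727A 2 it was -0.12.

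Myosin isoforms of the same hearts were set beside the actins, since Myh7, the fetal ventricular myosin, belongs to the same gene program in rodents. Myh7 made up 15.7%, 12.2%, 12.5% and 11.2% of the summed Myh6 and Myh7 FPKM in S727A libraries 1 to 4. In WT libraries 1 to 4 its share was 4.45%, 10.96%, 6.86% and 1.71%, below all S727A libraries, WT 2 narrowly so. This share was not tested, and Myh7 itself, whose groups overlapped in CPM, differed by 0.85 ± 0.63 on the log2 scale (SE, edgeR adjusted p = 0.527, not passing). WT 1 and WT 4, lowest in the Myh7 share, were also the libraries that held airway transcripts, and a link was not tested. The actin and myosin shares did not rank the libraries alike: S727A 1 had the highest Myh7 share and the lowest Acta1 share, and WT 3 the second highest Acta1 share with a Myh7 share of 6.86%. Over the 8 libraries the log2 CPM of Acta1 and Myh7 had a Pearson r of -0.18 and a Spearman rho of -0.33, and r was -0.02 without S727A 1 and S727A 2, the libraries farthest from the median of Acta1. These coefficients are a description of 8 libraries that also differ in genotype.

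**Figure D3:**
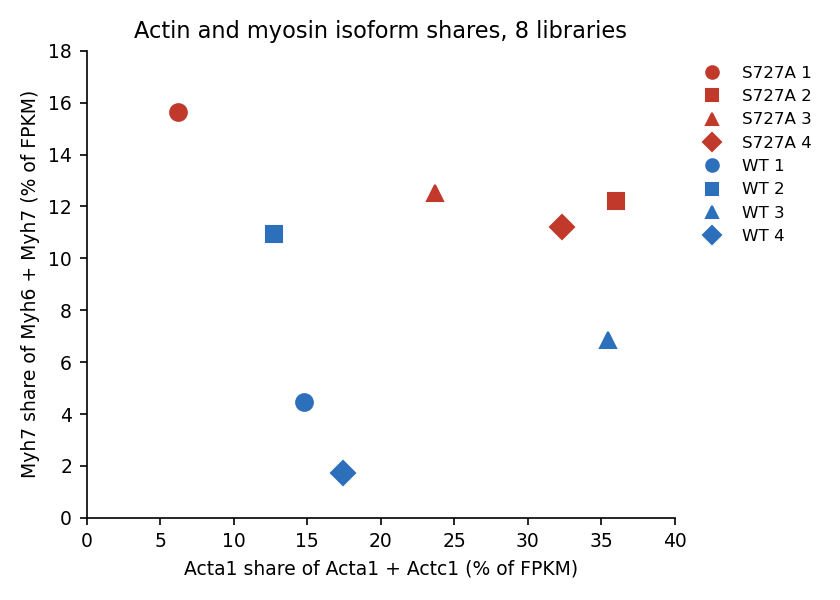
Share of Acta1 in the FPKM of Acta1 and Actc1 (horizontal axis, %) against the share of Myh7 in the FPKM of Myh6 and Myh7 (vertical axis, %) for 8 libraries, with colour for genotype and shape for replicate number. S727A 1 combines the lowest actin share (6.19%) with the highest myosin share (15.7%), and WT 3 has 35.4% and 6.86%.

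Among the troponins, the tropomyosin-binding subunit Tnnt2 (gene 21956, chromosome 1, 135836354 to 135852260, plus strand, GRCm38) was at 6272, 5044, 5771 and 5409 FPKM in S727A libraries 1 to 4. In WT libraries 1 to 4 it was at 6498, 6088, 4641 and 4098 FPKM. The WT values bracketed those of S727A, and the log2 fold change was 0.09 ± 0.15 (SE, edgeR adjusted p = 0.805). Counts are per gene, so the alternative exons of Tnnt2 that are exchanged during heart development were not resolved.

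Tnnc1 encodes the calcium-binding subunit of cardiac and slow muscle (gene 21924, chromosome 14, 31208312 to 31211729, plus strand, GRCm38). It was the steadiest of the 9 tested genes, with a within-group SD of 0.0796 on the log2 CPM scale. The values were 3825, 3958, 4039 and 3659.7 FPKM in S727A libraries 1 to 4 and 3647, 3745, 3753 and 3278 FPKM in WT libraries 1 to 4. Only S727A 4 fell among the WT libraries. The log2 fold change of 0.13 ± 0.08 did not pass (SE, edgeR adjusted p = 0.425), and its 95% interval in fold was 0.966 to 1.25. In GENCODE M21 the gene Nisch spans Tnnc1 on the opposite strand, as Gm20388 spans Acta1 and A530058N18Rik spans Actc1. The sources used here do not say whether counting used strand, so reads of such partners cannot be told apart.

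Tnni3 is cardiac troponin I, the inhibitory subunit of the adult heart (gene 21954, chromosome 7, 4518305 to 4524229, minus strand, GRCm38). It was at 4587, 4435, 4271 and 4616 FPKM in S727A libraries 1 to 4 and at 5767, 5859.99, 4179 and 4828 FPKM in WT libraries 1 to 4. WT 3 lay below all S727A libraries and the other WT libraries above them. The log2 fold change was -0.18 ± 0.12 (SE, edgeR adjusted p = 0.443), or -0.27 without WT 3, which did not pass either. Dnaaf3 overlaps Tnni3 by 1297 bases on the same strand. Per length, Tnni3 over Tnnt2 was 0.731 to 0.879 in S727A and 0.888 to 1.18 in WT. The groups did not overlap in this ratio, but the nearest libraries, S727A 2 at 0.879 and WT 1 at 0.888, were close, and the ratio was chosen after its values were seen and was not tested. Tnnc1 over Tnnt2, at 0.561 to 0.809 over all libraries, overlapped between genotypes.

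Tnni1, the slow skeletal troponin I of the fetal heart (gene 21952, chromosome 1, 135779434 to 135810989, plus strand, GRCm38), was close to absent. It had 11, 4, 3 and 5 counts in S727A libraries 1 to 4 and 1, 6, 4 and 5 counts in WT libraries 1 to 4, too few for the filter on low counts. Summed over a group the counts were 23 in S727A, with an exact Poisson 95% interval of 14.6 to 34.5, and 16 in WT, with one of 9.15 to 26.0. These intervals overlap and cover counting error only. With no filter the log2 fold change was 0.45 ± 0.58 (SE, edgeR adjusted p = 0.735). Tnni1 supplied 0.00217% to 0.0236% of the summed Tnni1 and Tnni3 counts of a library, so nearly all of that sum was the cardiac form in both genotypes. The log2 ratio of Tnni1 over Tnni3 was -13.05 ± 0.69 in S727A and -13.76 ± 1.17 in WT (SD, n = 4), a difference of 0.71 (exact two-sided permutation p = 0.486, adjusted 0.771), of which 0.14 was left without WT 1, the library with 1 count.

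Tpm1, the main tropomyosin of the heart (gene 22003, chromosome 9, 67022590 to 67049406, minus strand, GRCm38), was at 8363, 8137, 9372 and 8067 FPKM in S727A libraries 1 to 4. In WT libraries 1 to 4 it was at 8792, 9574, 7377 and 7012 FPKM. As with Tnnt2, WT 1 and WT 2 were high and WT 3 and WT 4 low, with S727A inside that range. The log2 fold change was 0.08 ± 0.12 (SE, edgeR adjusted p = 0.770) with a 95% interval in fold of 0.884 to 1.26. Splice forms of Tpm1 and Tpm2 were not resolved either, so a ratio of Tpm2 over Tpm1 compares genes and not splice forms.

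Tpm2 encodes beta-tropomyosin, which is abundant in slow skeletal muscle and smooth muscle (gene 22004, chromosome 4, 43514711 to 43523765, minus strand, GRCm38). It was at 33.8, 63.6, 38.4 and 53.2 CPM in S727A libraries 1 to 4 and at 45.2, 48.7, 42.3 and 55.4 CPM in WT libraries 1 to 4. The S727A libraries spread wider than the WT libraries and enclosed them. Its log2 fold change was -0.02 ± 0.19 (SE, edgeR adjusted p = 0.970). Per length, Tpm2 made up 0.198% to 0.371% of the summed FPKM of Tpm1 and Tpm2. The means were 0.274% ± 0.0764 in S727A and 0.282% ± 0.0321 in WT (SD, n = 4). The log2 count ratio of Tpm2 over Tpm1 differed by -0.15 (exact two-sided permutation p = 0.629, adjusted over the 4 ratios 0.771). The smooth muscle markers Acta2, Tagln, Myh11, Cnn1, Smtn, Actg2 and Lmod1, all detected, summed to 391 to 431 CPM in S727A and 446 to 681 CPM in WT. This sum was not tested, and none of these markers passed in edgeR. Acta2 alone ran from 115 to 254 CPM over the 8 libraries, and each marker by itself overlapped between the groups. The part of smooth muscle in the level of Tpm2 was not tested.

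The FPKM of Tpm2 carried a further readout. Dividing each count by the deposited FPKM and the library total gives, once scaled, an implied transcript length for a gene, on the assumption that the authors' FPKM divide by the total of the count column. For Acta1, Actc1, Tnnt2, Tnni3, Tnnc1, Tpm1, Tmod1 and Lmod2 this length varied between libraries by no more than 1.04-fold. For Tpm2 it was 1698, 2061, 2064 and 2247 bases in S727A libraries 1 to 4 and 1935, 1893, 2182 and 2433 bases in WT libraries 1 to 4, a range of 1.43-fold. For Tnni1, with at most 11 counts in a library, it varied 1.31-fold. The groups overlapped, with means of 2018 ± 230 bases in S727A and 2111 ± 250 bases in WT (SD, n = 4). Libraries of 1 genotype differed in this implied length, and the FPKM of Tpm2 moved less between libraries (1.64-fold) than its CPM (1.88-fold).

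**Figure D4:**
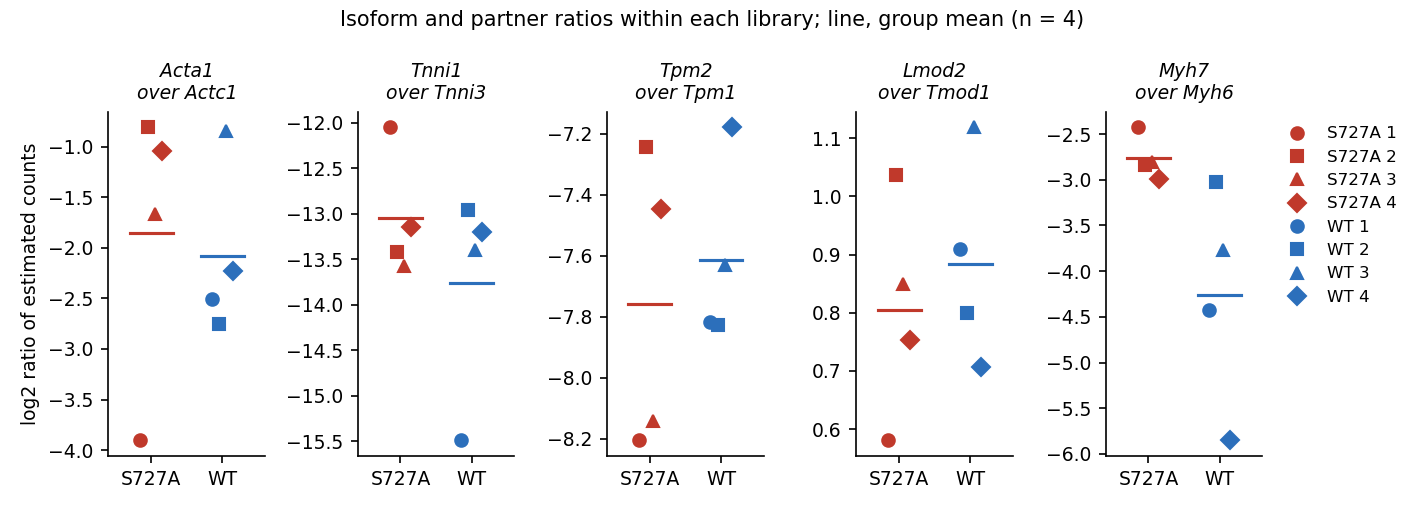
Log2 ratio of estimated counts within each library for Acta1 over Actc1, Tnni1 over Tnni3, Tpm2 over Tpm1, Lmod2 over Tmod1 and, for comparison, Myh7 over Myh6, with a line at the group mean (n = 4). The genotypes overlap in the first 4 panels, and each panel has its own vertical scale.

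At the pointed end of the filament, Tmod1 encodes tropomodulin, which caps actin and limits its length, and Lmod2 encodes leiomodin, which favours elongation. Tmod1 (gene 21916, chromosome 4, 46038935 to 46116032, plus strand, GRCm38) was at 211, 171, 209 and 180.5 FPKM in S727A libraries 1 to 4 and 200.5, 205, 158 and 174 FPKM in WT libraries 1 to 4. Lmod2 (gene 93677, chromosome 6, 24597762 to 24605414, plus strand, GRCm38) was at 460.4, 511, 551 and 443 FPKM in S727A libraries 1 to 4 and 552, 521, 499 and 409.95 FPKM in WT libraries 1 to 4. Both genes overlapped between the groups throughout. Their log2 fold changes were 0.09 ± 0.11 for Tmod1 and 0.01 ± 0.11 for Lmod2 (SE, edgeR adjusted p of 0.721 and 0.971). Leiomodin exceeded tropomodulin in every library, by 2.18-fold to 3.16-fold per length, lowest in S727A 1 and highest in WT 3. The log2 count ratio of Lmod2 over Tmod1 was 0.81 ± 0.19 in S727A and 0.88 ± 0.18 in WT (SD, n = 4, exact two-sided permutation p = 0.571, adjusted 0.771). The estimates of Tmod1 were fractional in all 8 libraries, and the gene Tstd2 overlaps its locus by 1287 bases on the opposite strand.

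Tnnt2, Tpm1 and Tmod1 ranked the libraries much alike, and Acta1 ranked them differently. Over 8 libraries, Pearson r of log2 CPM was 0.88 between Tnnt2 and Tpm1, 0.86 between Tnnt2 and Tmod1 and 0.85 between Tpm1 and Tmod1, with Spearman rho of 0.79, 0.81 and 0.79. Acta1 had an r of -0.72 with Tmod1 (rho -0.62), -0.56 with Tnnt2 (rho -0.62) and 0.43 with Actc1 (rho 0.33). Its highest r among the other 9 genes was 0.60, with Tpm2 (rho 0.55). These are descriptions over libraries that share a scaling factor for all genes, and each abundant gene takes reads from the others.

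Other genes of the thin filament and its turnover were taken from a list of 24, of which 22 were tested. None passed in edgeR or voom, 7 had an unadjusted p under 0.05 and 3 had groups that did not overlap, against 17.8% and 8.43% of all tested genes. Of the 22, 13 lay above 0, with a median log2 fold change of 0.10. Acta2, the smooth muscle actin, averaged 126 ± 16.4 CPM (S727A) against 219 ± 51.2 CPM (WT; SD, n = 4). Its log2 fold change was -0.80 ± 0.17 (SE, edgeR adjusted p = 0.0992). Of the 7 smooth muscle markers given above, Acta2 among them, 6 had a negative log2 fold change and Actg2 one of 0.32, 3 had an unadjusted p under 0.05, and none passed in edgeR. The part of smooth muscle in the level of Acta2 was not tested. Tnnt1, the slow skeletal troponin T, was at 3.81, 4.61, 6.24 and 4.66 CPM in S727A libraries 1 to 4 and 11.3, 10.6, 6.59 and 6.85 CPM in WT libraries 1 to 4. No S727A value reached the lowest WT value, although S727A 3 and WT 3 were close. The log2 fold change was -0.87 ± 0.22 (SE, edgeR adjusted p = 0.124). Cfl2, the muscle cofilin that severs actin filaments, averaged 384 ± 40.5 CPM (S727A) against 289 ± 32.9 CPM (WT; SD, n = 4), again without overlap. Its log2 fold change was 0.41 ± 0.11 (SE, edgeR adjusted p = 0.124). Tmod4, the skeletal tropomodulin, was the third gene without overlap, at 12.4 ± 1.36 against 19.2 ± 4.81 CPM (SD, n = 4).

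DESeq2 called 4 of these 22 genes, against 533 of the 17191 genes of the whole table. The 22 had passed the edgeR filter on low counts and the whole table had not, so these shares rest on unlike sets. Acta2, Tnnt1 and Tmod4 were called as lower and Cfl2 as higher in S727A, with DESeq2 adjusted p of 0.0011, 0.0252, 0.0367 and 0.0147. In edgeR, Acta2 and Tnnt1 passed when WT 3 was left out, in a fit that called 275 genes in all. Cfl2 and Wdr1 passed when S727A 4 was left out, in a fit that called 617 genes. These calls thus depended on the tool and on single libraries. The fast skeletal genes Tnni2, Tnnc2 and Tnnt3 reached at most 1.44 CPM in any library. The 7 skeletal muscle markers in the table summed to 38.4 to 91.3 CPM in S727A and 30.7 to 55.8 CPM in WT. Most of this was Myl1, with Myh1, Mylpf and Actn3 averaging no more than 0.543 CPM in either group. Acta1 itself ran from 914 to 9020 CPM, and S727A 1, lowest in Acta1, was also the lowest of its group in the sum of these markers. The lowest sum of all, 30.7 CPM, was in WT 1, where Acta1 was at 2786 CPM. WT 2, lowest of its group in Acta1, had a sum of 44.4 CPM. The part of skeletal muscle in the level of Acta1 was not tested.

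**Figure D5:**
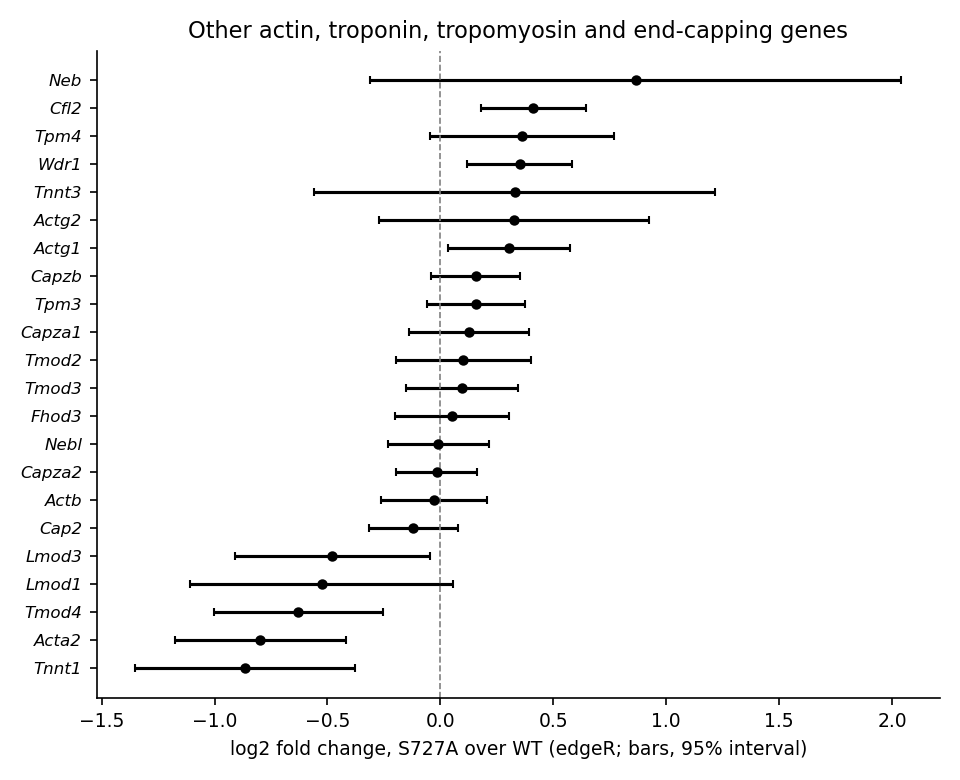
Log2 fold change of S727A over WT (edgeR) for the 22 tested genes of the list of other actin, troponin, tropomyosin and filament-turnover genes, with bars for the 95% interval. Tnnt1, Acta2 and Tmod4 lie lowest (-0.87, -0.80 and -0.63), Neb has the widest interval, and no gene passed the adjusted test in edgeR.

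The thick filament and the regulators of sarcomeric transcription gave the setting. Of 10 thick filament genes none passed in edgeR or voom, 4 had an unadjusted p under 0.05 and 3 had groups that did not overlap, against 17.8% and 8.43% of all tested genes. The median log2 fold change was -0.11. Myh7b, a slow myosin, had a log2 fold change of -0.84 ± 0.19, Mybpc3, cardiac myosin-binding protein C, one of 0.33 ± 0.10 and Myl3, the ventricular essential light chain, one of 0.31 ± 0.11 (SE). Their edgeR adjusted p values were 0.115, 0.154 and 0.192. DESeq2 called 533 of the 17191 genes of the whole table, those with low counts included. Of the 10 thick filament genes it called Myh7b and Myl7 as lower and Mybpc3 as higher in S727A. In edgeR Myh7b passed without S727A 4, in a fit that called 617 genes in all. Myl7 is an atrial light chain, and the 6 tested atrial myocyte markers, Myl7 among them, all had negative log2 fold changes with a median of -0.72 and none passing in edgeR. The 7 atrial markers in the table summed to 140 to 219 CPM in S727A and 196 to 360 CPM in WT, and their part in the level of Myl7 was not tested. Of 10 regulators tested none passed in edgeR or DESeq2, 2 had an unadjusted p under 0.05 (17.8% of all tested genes), and the median was 0.03. Srf, the CArG-binding factor, averaged 218 ± 25.8 CPM (S727A) against 205 ± 30.4 CPM (WT; SD, n = 4), and its cofactor gene Myocd 113 ± 8.32 against 109.9 ± 11.1 CPM. Mkl2, a myocardin-related SRF cofactor, had a log2 fold change of -0.39 ± 0.12, Abra, an actin-binding activator of SRF signalling, one of 1.05 ± 0.42 and Mef2a one of -0.20 ± 0.09 (SE, edgeR adjusted p of 0.152, 0.259 and 0.285). Over the 8 libraries the log2 CPM of Srf and Acta1 had a Pearson r of 0.0017 and a Spearman rho of 0.10, as a description.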

How the data were processed

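RNA from whole hearts was sequenced after Trizol extraction and preparation of stranded mRNA libraries by BGI for DNBSEQ, per the labels' protocols. FastQC, HISAT2, Bowtie2 and GRCm38.p6 are named in the submitters' processing notes; no counting tool is named there. One table held, per the file headers, estimated counts, FPKM values made by the authors, group means, and the authors' log2 ratio with its p-value and q-value. Between 6.06% and 7.62% of entries in a library were not whole (tolerance 1e-06). In that deposited table the authors' q-values for the 10 genes ran from 0.429 to 0.991.

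Estimated counts were rounded. Genes were kept by filterByExpr (minimum count 10, minimum total 15) and tested in edgeR 4.0.16 (R 4.3.3) with TMM scaling, robust quasi-likelihood, genotype as the only term, and Benjamini-Hochberg adjustment over 12998 genes at 0.05. Standard errors and 95% intervals came from the F statistic. CPM used TMM-scaled sizes; log2 CPM had a prior count of 2. Ratios within a library used unrounded counts and an exact permutation over 70 assignments. DESeq2 1.42.0, limma 3.58.1 (voom, and trend on FPKM with a pseudocount of 1 or 0.1) and other scalings, filters and left-out libraries were alternatives. No library repeated another (chi-square per degree of freedom at least 9.13).

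The genes and lists were chosen with earlier results of these data known. Named were all 10 genes, and from each comparison list the genes past the threshold or up to 3 of smallest p, with levels of other thin filament genes; Wdr1, Myl7 and the skeletal genes are named for their calls or levels. Genes most like Acta1 were the 5 of highest Pearson r; those of Tnni1 are not given because its counts are too low. Coordinates and overlaps are from GENCODE M21, promoters from RefSeq (all 10 matched).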

Additional observations from a re-analysis of the deposited data

Results flagged for a closer look

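In 112 groups of 4 libraries examined for a library that stands apart from the rest, 4 had one, and chance gives about 1 in 20. None of the 4 concerned the 10 genes or their ratios. Neb, the gene of nebulin, which lies along thin filaments, was at 50.2 CPM in S727A 1 against 14.1 to 16.0 CPM in S727A 2 to 4. The same library held Myh7 at 6586 CPM against 4320 to 4701 CPM in the others of its group, and the lowest Acta1. Acta2 was at 143 CPM in WT 3 against 237 to 254 CPM in the other WT libraries. Actg2, a smooth muscle actin, was at 3.97 CPM in S727A 2 against 2.10 to 2.33 CPM in the other S727A libraries.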

How the results depend on the processing

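All 9 tested genes stayed short of the threshold under each of the 18 alternatives, and 149 of 162 values kept their direction. The log2 fold change of Acta1, 0.52 in the main edgeR fit and in DESeq2, was smaller under other methods. It was 0.29 in voom, 0.26 on FPKM with either pseudocount and 0.28 with the replicate number as a block. The log2 fold changes that changed sign were all near 0. Leaving out 1 library gave -0.0040 to 0.11 for Actc1, -0.025 to 0.20 for Tnnt2, -0.20 to 0.11 for Tpm2 and -0.072 to 0.073 for Lmod2. Without WT 1 and WT 4 Tpm2 was at 0.057 and Lmod2 at -0.026, without S727A 4 and WT 4 Lmod2 was at -0.019, and on FPKM it was at -0.0085 with either pseudocount. The log2 ratio of Acta1 over Actc1 differed by -0.12 to 0.91 when 1 library was left out, by -0.089 without S727A 4 and WT 4 and by -0.055 without WT 1 and WT 4, and that of Tpm2 over Tpm1 by -0.32 to 0.0033 when 1 library was left out. Ratio p-values under these alternatives say little of stability, because after adjustment over 4 ratios a lone ratio could not pass in these designs.

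The background of called genes was less stable: 19 in edgeR, 533 in DESeq2, 6 in voom, 0 on FPKM with either pseudocount, 242 without S727A 4 and WT 4, 0 without WT 1 and WT 4, and 0 to 617 when 1 library was left out (617 without S727A 4, 275 without WT 3). Of other thin filament genes DESeq2 called 4, the fit without S727A 4 and WT 4 called 2, and leaving out 1 library gave 0 to 2. The thick filament counts were 3, 1 and 0 to 1. The cause was not tested. Over all tested genes, same-numbered libraries did not deviate together from their group means (correlations of -0.10 to 0.07). These correlations cannot settle whether the numbers pair libraries, and S727A 4 and WT 4 were both almost free of Y-linked reads. With the replicate number as a block 2 genes were called, and none of the 9. Depth limits Tnni1 alone among the 10 genes.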

Other observations

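Among 12355 candidate genes, those whose log2 CPM was most like that of Acta1 over the 8 libraries were Ggh, a folate hydrolase gene (Pearson r 0.99, Spearman rho 0.98), Eaf1 (0.96 and 0.88), Ormdl2, a regulator of sphingolipid synthesis (0.95 and 1), Enho (0.94 and 0.93) and Fam185a (0.94 and 0.98). Without S727A 1 and S727A 2, the libraries farthest from the median of Acta1, r was 0.87 to 0.97. The amplitudes differed: Ggh ran from 6.85 to 9.53 CPM while Acta1 ran from 914 to 9020 CPM. They were picked as the highest of many candidates over few libraries, so the coefficients are a description and carry no test. The hypertrophy markers Nppa and Nppb, chosen for comparison, had r of 0.28 and 0.16 with Acta1, and rho of 0.48 and 0.17. Without S727A 1 and S727A 2, r was 0.45 for Nppa and 0.69 for Nppb.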
